A study of Mus musculus with 4 samples.

Results

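The granzymes, perforin and 1 related serpin were examined in immune cells of MC38 tumors. The 10 genes were Gzma, Gzmb, Gzmc, Gzmd, Gzme, Gzmf, Gzmg, Gzmk, Prf1 and Serpinb9b. They were taken by symbol from the 32285 genes of the deposited gene list, and all 10 were present. MC38 is a mouse colon adenocarcinoma line, grown here as tumors in young adult C57BL/6 mice. The tumor cells were either RAC1 WT or carried the RAC1 A159V substitution, a homozygous CRISPR knock-in isolated as clones, with 1 clone as the study's default and no other named for these libraries. Mice received either an IgG isotype control or an antibody to PD1, and the groups are named by tumor and antibody (WT IgG and WT anti-PD1 for WT tumors, A159V IgG and then A159V anti-PD1 for the edited ones). Where 4 values stand together they follow that order. The lymphocytes came from the host, whose RAC1 was not edited, and the A159V and WT names below refer to the tumor cells. CD45+ and CD45- cells of each tumor were separated on beads and remixed before loading, so the proportions of immune and other cells were set in part by the remixing. Each group was 1 library of single-cell 3′ RNA sequencing, and the number of mice pooled in a library was not given in the sources used here. No difference between groups could therefore be tested, and every interval below is a 95% interval for counting error only.

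Cytotoxic lymphocytes store perforin and granzymes in secretory granules and release them onto a bound target cell. Perforin, encoded by Prf1, forms pores through which the granzymes, a family of serine proteases, enter the target. Granzyme B cleaves after aspartate and can start apoptosis through caspases, while granzymes A and K have trypsin-like activity. Gzmc, Gzmd, Gzme, Gzmf and Gzmg belong to the rodent expansion of the granzyme B locus, and NK cells and activated CD8+ T cells are known to transcribe them. Serpinb9b encodes a relative of Serpinb9, the intracellular inhibitor that protects killer cells from their own granzyme B. Regulatory T cells in tumors are also known to express granzyme B.

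In GRCm38, the build of the deposited files, 6 of the 10 genes lie on the minus strand of chromosome 14 from 56117626 to 56262260, in the order Gzme, Gzmd, Gzmg, Gzmf, Gzmc and Gzmb. Gzma and Gzmk lie on chromosome 13, from 113093825 to 113100981 and from 113171608 to 113225908, both on the minus strand. Serpinb9b lies on chromosome 13, from 33027416 to 33041884, and Prf1 on chromosome 10, from 61297833 to 61304680, both on the plus strand. The 250 bases before the RefSeq start are shown for the 6 genes of chromosome 14. These genes lie within 145 kb, and 5 of them, Gzmc to Gzmg, differed widely in level between libraries. Capitals mark every match, on either strand, to TGTGGT (the RUNX motif), TGANTCA (AP-1), GGTGTGA (T-box), TTCNNNGAA (STAT) and TGACGTCA (the cyclic AMP response element, CRE). The sequences are from RefSeq, GRCm38.p6, and all 10 genes had an entry.
Gzmb (chr14:56262335-56262584, minus strand): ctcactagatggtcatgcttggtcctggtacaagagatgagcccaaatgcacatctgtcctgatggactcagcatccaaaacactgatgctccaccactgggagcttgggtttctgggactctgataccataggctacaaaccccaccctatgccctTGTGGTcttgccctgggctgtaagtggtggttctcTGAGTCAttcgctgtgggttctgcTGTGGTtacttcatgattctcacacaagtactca
Gzmc (chr14:56234658-56234907, minus strand): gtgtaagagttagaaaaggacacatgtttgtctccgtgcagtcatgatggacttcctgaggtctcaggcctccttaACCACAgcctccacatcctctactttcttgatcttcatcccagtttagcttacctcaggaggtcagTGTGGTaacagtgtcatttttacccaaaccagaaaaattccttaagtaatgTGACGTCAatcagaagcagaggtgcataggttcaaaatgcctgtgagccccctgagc
Gzmd (chr14:56132594-56132843, minus strand): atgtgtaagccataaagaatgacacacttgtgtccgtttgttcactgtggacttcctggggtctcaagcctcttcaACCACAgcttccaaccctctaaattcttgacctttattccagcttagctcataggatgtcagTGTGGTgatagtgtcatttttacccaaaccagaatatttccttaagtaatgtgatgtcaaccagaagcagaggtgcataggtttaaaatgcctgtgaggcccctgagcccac
Gzme (chr14:56120626-56120875, minus strand): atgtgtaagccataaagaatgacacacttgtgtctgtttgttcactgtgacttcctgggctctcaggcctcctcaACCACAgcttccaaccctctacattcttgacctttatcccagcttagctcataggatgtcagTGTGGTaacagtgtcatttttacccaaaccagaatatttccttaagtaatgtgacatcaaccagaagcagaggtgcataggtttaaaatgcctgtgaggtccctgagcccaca
Gzmf (chr14:56211408-56211657, minus strand): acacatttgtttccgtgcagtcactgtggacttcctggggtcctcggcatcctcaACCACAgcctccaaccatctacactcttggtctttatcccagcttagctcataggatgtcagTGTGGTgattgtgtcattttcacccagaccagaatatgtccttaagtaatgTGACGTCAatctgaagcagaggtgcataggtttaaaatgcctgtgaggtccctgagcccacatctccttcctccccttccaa
Gzmg (chr14:56159580-56159829, minus strand): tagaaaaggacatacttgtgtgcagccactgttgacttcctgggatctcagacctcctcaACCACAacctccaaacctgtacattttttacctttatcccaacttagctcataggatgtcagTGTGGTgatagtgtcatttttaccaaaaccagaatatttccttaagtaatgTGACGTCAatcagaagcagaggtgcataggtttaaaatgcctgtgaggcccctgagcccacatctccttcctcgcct
Each of the 5 sequences from Gzmc to Gzmg held 2 RUNX matches, 1 on each strand. Gzmc, Gzmf and Gzmg also held a CRE match nearer to the start. Gzmb held 2 RUNX matches at other positions and 1 AP-1 match, Gzmk held 1 T-box match, and Gzma and Prf1 held 1 RUNX match each. None of the 10 sequences held a STAT match. Of 32851 upstream sequences of the same length, 14% held a RUNX match, 6.75% an AP-1 match, 3.33% a T-box match, 7.02% a STAT match and 1.55% a CRE match. Aligned end to end, the 5 sequences from Gzmc to Gzmg were 71.5% (Gzmc and Gzmf) to 94.8% (Gzmd and Gzme) identical to each other, and the Gzmb sequence was 44.6% to 50.2% identical to them. The matches are a description of these letters and not of binding.

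The 4 libraries held 7430 to 9311 cell barcodes and 54402632 to 125227747 UMIs. After cells with 500 or fewer genes and 374 to 631 predicted doublets per library were left out, 29184 cells remained, of which 5788 were in T-like and NK-like clusters. Between 13 and 22 barcodes were shared by any pair of libraries. The WT anti-PD1 library stood apart: it held 5 tumor-like cells against 1267 to 2713 in the others and 1588 stromal-like cells against 177 to 866. Its lymphocytes also formed clusters of their own. Of the 17 subclusters of T-like and NK-like cells, 4 took over 80% of their cells from this library, 1 each among NK-like, CD8 T-like, Treg-like and unnamed T cells. A UMI of at least 1 of 7 genes of other cell types (Col1a1, Col3a1, C1qa, C1qb, Lyz2, S100a8 and Krt18) was found in 77.6% of CD8 T-like cells, 79.96% of NK-like cells and 69.6% of Treg-like cells of WT anti-PD1. In the other 3 libraries these shares were 7.18% to 24.8%. Leaving out those cells kept 123 CD8 T-like and 93 NK-like cells of WT anti-PD1, and in them the differences from WT IgG in Gzmc to Gzmf were at least as large as in all cells. Beyond leaving those cells out, the part of the stray transcripts in the results was not tested. Clustering did not use any of the 10 genes reported here.

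The classes compared were 1568 CD8 T-like cells, 1503 NK-like cells, 970 Treg-like cells and 78 gamma-delta T-like cells, with 952 T cells led by Nsg2 and Klra6 that matched no marker list and stay unnamed. Cd8a or Cd8b1 was detected in 59.3% (A159V IgG) to 88.2% (WT anti-PD1) of CD8 T-like cells. Ncr1 or Klrb1c, receptors of NK cells, was detected in 73.8% to 85.8% of NK-like cells, and Foxp3 or Il2ra in 72.9% to 92.3% of Treg-like cells (Foxp3 alone in 27.1% to 65.7%). The gamma-delta T-like cells numbered 19 and 11 in the WT libraries, IgG first, and 5 and 43 in the A159V libraries. Trdc, the delta chain constant gene, was detected in 50% of them, in 15.8% and 17.0% of the 2 Nsg2/Klra6 subclusters and in up to 19.6% of NK-like subclusters, so Trdc alone did not mark gamma-delta T cells here. By library, Trdc was detected in 63.2%, 18.2%, 0% and 58.1% of the gamma-delta T-like cells. The name thus rests mainly on the cells of WT IgG and A159V anti-PD1.

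Levels below are CPM, the UMIs of a gene divided by all UMIs of the class in a library and scaled to a common total, in which each UMI tags 1 transcript at its 3′ end, so that levels were not divided by transcript length. NK-like cells held 9 of the 10 genes at 75.6 CPM or more in every library, all but Gzmk. CD8 T-like cells held Gzmb, Prf1, Gzma and Gzmk in every library and Gzmc to Gzmf at levels that differed between libraries. Treg-like cells held Gzmb and little else, and the gamma-delta T-like cells held 22 Gzmb UMIs in all. Tumor-like cells, which should lack these transcripts, held at most 3.85 CPM of any of the 10 genes in the 3 libraries with more than 5 such cells. Stromal-like cells held at most 15.8 CPM, except in A159V IgG, where Gzmc reached 47.3 CPM with 46.7% of its UMIs in 1 cell.

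**Figure D1:**
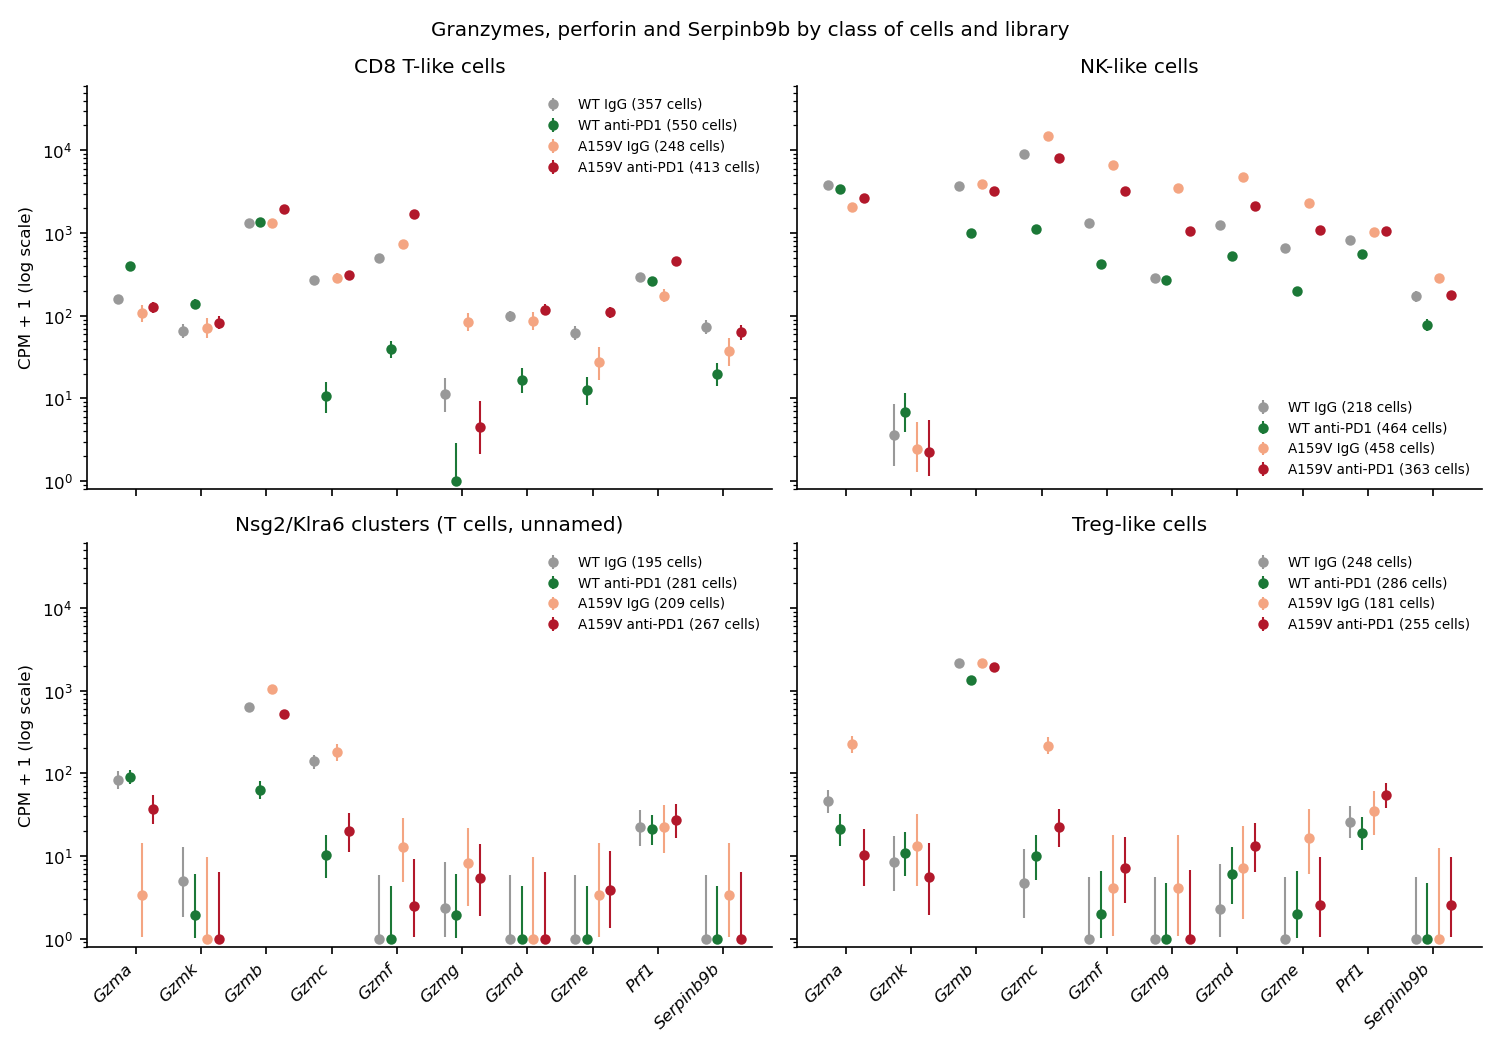
CPM plus 1 (log scale) of each of the 10 genes (x axis) in 4 classes of cells, 1 point for each library with its 95% Poisson interval for counting error. NK-like cells show all genes but Gzmk at high levels, Treg-like cells show mainly Gzmb at 1353 to 2134 CPM, and the WT anti-PD1 point lies below the others for Gzmc, Gzmd and Gzmf in CD8 T-like cells.

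In NK-like cells the rodent granzymes of chromosome 14 separated the libraries most. With WT tumors, Gzmc stood at 9151 CPM under IgG and 1131 CPM under anti-PD1, and with A159V tumors at 14896 and 8076 CPM. Gzmf stood at 1309, 425, 6619 and 3207 CPM in the same order, and Gzmg at 286, 268, 3461 and 1068 CPM. All 5 genes from Gzmc to Gzmg were highest in A159V IgG and lowest in WT anti-PD1, although for Gzmg the intervals of the WT libraries overlapped. Gzmd was at 1236, 522, 4797 and 2112 CPM and Gzme at 662, 199.9, 2321 and 1083 CPM. Gzmb was at 3687, 1007, 3950 and 3251 CPM, low in WT anti-PD1 and of similar level in the other 3 libraries. Serpinb9b was at 171, 75.6, 283 and 175 CPM. Gzma, by contrast, was highest in WT IgG at 3818 CPM and lowest in A159V IgG at 2084 CPM, with 3402 in WT anti-PD1 and 2631 in A159V anti-PD1. Prf1 was at 835, 555, 1025 and 1054 CPM. Gzmk was at or below 5.89 CPM in NK-like cells of all 4 libraries, with 2 to 11 UMIs.

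Of the 9 genes at 20 CPM or more in NK-like cells, 4 were more than 2-fold higher and 0 more than 2-fold lower in A159V IgG over WT IgG, where 1.32% of all genes were higher and 1.09% lower by that much. The 4 were Gzmg, with a log2 ratio of 3.59 (3.43 to 3.75), Gzmf with 2.34 (2.26 to 2.41), Gzmd with 1.96 (1.88 to 2.04) and Gzme with 1.81 (1.70 to 1.92). Gzmc was 1.63-fold higher and Gzma 1.83-fold lower, both short of 2-fold, and Gzmb differed by 0.10 (0.05 to 0.15) on the log2 scale. The median log2 ratio of the 9 genes was 0.73, against -0.048 over all genes tested. In this comparison 153 of the 218 WT IgG cells and 278 of the 458 A159V IgG cells lay in the same subcluster. The 4 ratios stayed above 2-fold under all 12 alternative settings, including without the cell with the most UMIs of each gene.

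With anti-PD1 in WT tumors, 6 of the 9 genes were more than 2-fold lower in NK-like cells than with IgG and 0 were higher, where 6.83% of all genes were lower and 14.6% higher. Gzmc was 8.09-fold lower, Gzmb 3.66-fold, Gzme 3.30-fold, Gzmf 3.08-fold, Gzmd 2.36-fold and Serpinb9b 2.24-fold. Gzma, with a log2 ratio of -0.17 (-0.22 to -0.11), and Gzmg, with -0.093 (-0.29 to 0.11), were not. The median log2 ratio of the 9 genes was -1.24, against 0.33 over all genes tested. This comparison set different clusters against each other: 421 of the 464 NK-like cells of WT anti-PD1, and 10 of the 218 of WT IgG, lay in the subcluster led by Klra8 and Klra4. Without the subclusters drawn mostly from 1 library, 43 WT anti-PD1 cells remained and Gzmc was still lower, at -1.09. In the same 43 cells Gzmb was at -0.85, and Gzmd, Gzme, Gzmf and Gzmg were above WT IgG, at 1.19, 0.65, 0.74 and 2.36 on the log2 scale.

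With anti-PD1 in A159V tumors, 4 of the 9 genes were more than 2-fold lower than with IgG and 0 were higher, where 0.754% of all genes were lower and 1.09% higher. Gzmg was 3.24-fold lower, Gzmd 2.27-fold, Gzme 2.14-fold and Gzmf 2.06-fold, with Gzmc at 1.84-fold. The median log2 ratio of the 9 genes was -0.88, against 0.14 over all genes tested. Gzma was 1.26-fold higher and Prf1 differed by 0.04 (-0.05 to 0.13) on the log2 scale. With NK cells defined by Ncr1 or Klrb1c UMIs and no CD3 chain UMI in place of clusters, the 4 log2 ratios were -0.91, -0.84, -0.87 and -0.53, and none passed 2-fold. The A159V IgG library is in this comparison and in the comparison with WT IgG, so a high value there moves both.

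NK-like subclusters differed in these genes within the WT anti-PD1 library as well. Its 25 cells of the subcluster led by Spp1 and by the granzymes themselves held Gzmc at 7147 CPM and Gzmg at 2713 CPM, whereas its 421 cells of the subcluster led by Klra8 and Klra4 held 442 and 5.84 CPM. Gzmb was at 3486 CPM in the first and 782 CPM in the second. Gzma was at 3834 and 3581 CPM, with overlapping intervals. Pooled over libraries, of which WT anti-PD1 gave 92.7% of the Klra8 subcluster, that subcluster also held more Eomes (360 against 168 CPM) and Itga2 (306 against 67.2 CPM), a transcription factor and an integrin of circulating NK cells, and less Itga1 (116 against 184 CPM), an integrin of tissue-resident lymphocytes. Within the Spp1 subcluster, Gzmg was at 229 CPM in 153 WT IgG cells, 4553 CPM in 278 A159V IgG cells and 1357 CPM in 239 A159V anti-PD1 cells. Gzmf was at 1297, 8329 and 3202 CPM there. In the 25 WT anti-PD1 cells of this subcluster Gzmg and, at 4041 CPM, Gzmf were above the WT IgG cells. In the cycling subcluster, Gzmg was again above WT IgG in A159V IgG, at 683 against 122 CPM in 60 and 18 cells. In the subcluster led by Dscam and Ctnnd2 the order was the other way for Gzmg, at 810.0 CPM in 116 A159V IgG cells against 1358 CPM in 37 WT IgG cells, and for Gzmf, at 1713 against 2314 CPM. These are cells of 1 library each, and differences between clusters are descriptions.

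**Figure D2:**
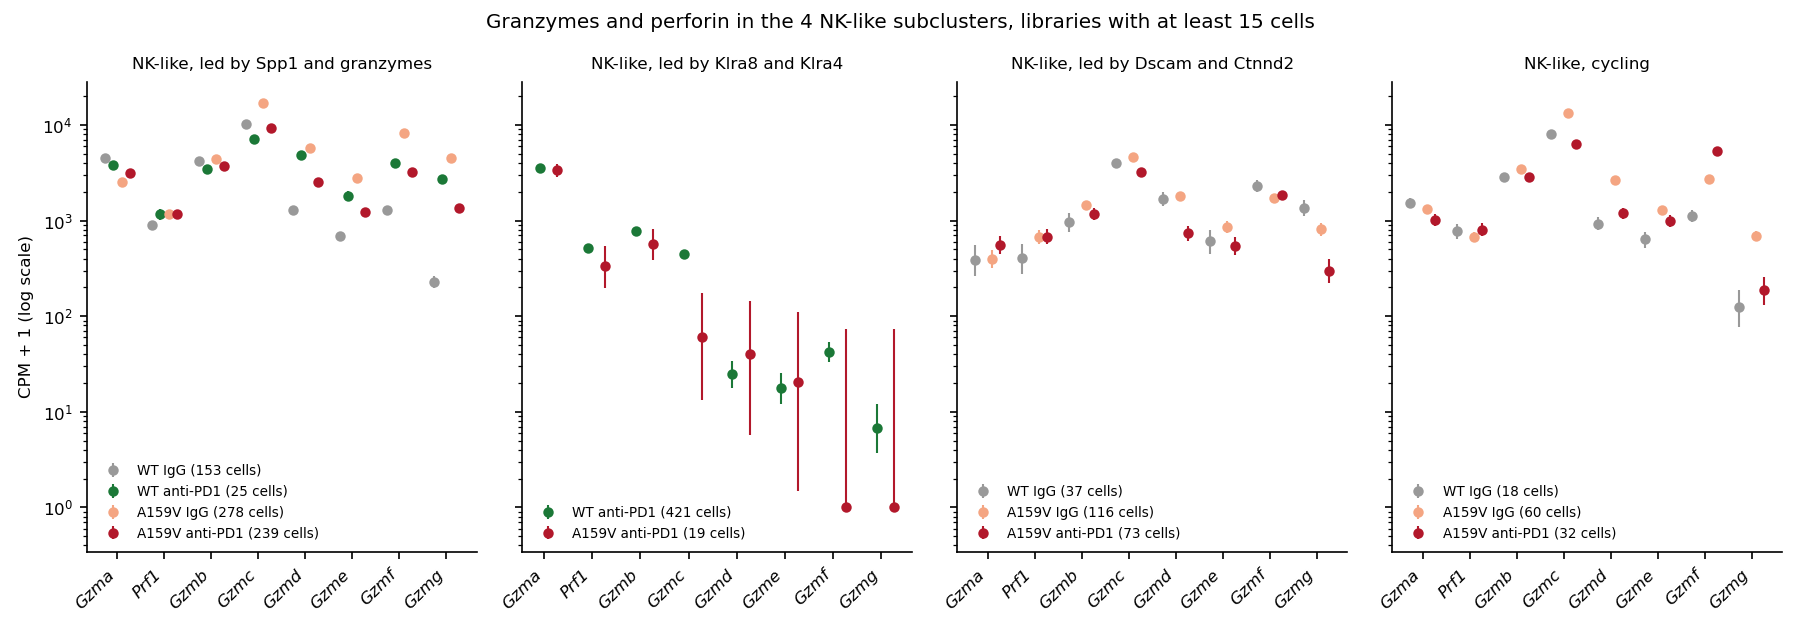
CPM plus 1 (log scale) of 8 genes (x axis) in each NK-like subcluster, 1 point for each library with at least 15 cells there and its 95% Poisson interval for counting error. In the subcluster led by Spp1 the A159V IgG points for Gzmd to Gzmg lie above those of the other libraries, and the subcluster led by Klra8, drawn almost wholly from WT anti-PD1, keeps Gzma at 3581 CPM in that library with Gzmc at 442 CPM.

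In CD8 T-like cells, Gzmb was at 1337 CPM under IgG and 1341 CPM under anti-PD1 with WT tumors, and at 1339 and 1932 CPM with A159V tumors. The first 3 libraries had overlapping intervals, and A159V anti-PD1 was 1.44-fold above A159V IgG, a log2 ratio of 0.53 (0.42 to 0.63) that clustering at resolution 0.5 took to -0.08. Prf1 was at 293, 265, 174 and 465 CPM in the same order, so that perforin was lowest in A159V IgG and highest in A159V anti-PD1. The log2 ratio of Prf1 was -0.74 (-1.03 to -0.46) for A159V IgG over WT IgG, which clustering at resolution 0.5 took to -0.11, and 1.41 (1.14 to 1.68) for A159V anti-PD1 over A159V IgG. With anti-PD1 in WT tumors it was -0.14 (-0.32 to 0.04).

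The rodent granzymes of chromosome 14 were at their lowest in CD8 T-like cells of WT anti-PD1. Gzmc was at 271 CPM under IgG and 9.56 CPM under anti-PD1 with WT tumors, and at 289 and 311 CPM with A159V tumors. Gzmf was at 492, 38.2, 746 and 1689 CPM. Gzmd was at 97.1, 15.6, 86.4 and 117 CPM and Gzme at 61.1, 11.6, 26.5 and 109 CPM. All 4 of these genes were lowest in WT anti-PD1, although for Gzme its interval (7.34 to 17.4) overlapped that of A159V IgG (15.9 to 41.4), and Gzme and Gzmf were highest in A159V anti-PD1. Gzmg was at 10.3, 0, 83.6 and 3.55 CPM, its highest value resting on 1 cell described below. Gzma and Gzmk had the other order: Gzma was at 157, 399, 106 and 126 CPM and Gzmk at 64.3, 139, 71.1 and 81.7 CPM, both highest in WT anti-PD1. Serpinb9b was at 72.0, 18.6, 36.2 and 62.5 CPM, lowest in WT anti-PD1 like Gzmc to Gzmf.

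Between WT anti-PD1 and WT IgG, 2 of the 9 genes at 20 CPM or more were higher and 5 were lower by more than 2-fold, where 8.76% of all genes were higher and 8.69% lower. Gzma was 2.53-fold and Gzmk 2.15-fold higher. Gzmc was 25.8-fold lower, Gzmf 12.6-fold, Gzmd 5.91-fold, Gzme 4.94-fold and Serpinb9b 3.72-fold. Of the 550 WT anti-PD1 cells, 506 lay in the Havcr2-led subcluster, which held 7 of the 357 WT IgG cells. Without that subcluster, 44 WT anti-PD1 cells remained, and the log2 ratios of Gzmc, Gzmd, Gzme and Gzmf still passed 2-fold lower (their range over all 12 alternatives was -5.97 to -1.72), while that of Serpinb9b was -0.28. The cells that remained still differed in subcluster. The subcluster led by Gm156 and Rgs8, described below with high Gzmf, held 7 of the 44 WT anti-PD1 cells and 126 of the 350 WT IgG cells. The part of this difference in the remaining ratios was not tested. The mean of CPM over single cells took the log2 ratios of Gzma to 0.24 and Gzmk to 0.40, under 2-fold.

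Between A159V IgG and WT IgG, 1 of the 10 genes was higher and 1 lower by more than 2-fold in CD8 T-like cells, where 2.09% of all genes were higher and 1.76% lower. Gzmg was 7.50-fold higher, but 1 of the 248 A159V IgG cells held 55 of its 60 UMIs. That cell also held 170 Gzmf UMIs, and without the top cell of each library the log2 ratio of Gzmg was 0.92. Gzme was 2.26-fold lower on 19 and 95 UMIs, a difference that 3 other settings took under 2-fold and 1 turned. Between A159V anti-PD1 and A159V IgG, 3 of the 10 genes were higher and 1 lower by more than 2-fold, where 2.51% of all genes were higher and 1.73% lower. Gzme was 3.99-fold, Prf1 2.66-fold and Gzmf 2.26-fold higher and Gzmg, with the same single cell in A159V IgG, 18.6-fold lower. Clustering at resolution 0.5 took the log2 ratio of Prf1 to 0.69 and of Gzmf to 0.75 and turned that of Gzme to -0.96. In cells with over 1000 genes Prf1 was at 0.99 and Gzmf at 0.53, both under 2-fold. Gzmf was also under 2-fold by the mean of CPM over single cells, at 0.79, and with CD8 T cells chosen by marker UMIs, at 0.98. The median log2 ratio of the genes at 20 CPM or more was -0.082 for A159V IgG over WT IgG, -1.90 for WT anti-PD1 over WT IgG and 0.48 for A159V anti-PD1 over A159V IgG, against 0.038, 0.21 and 0.055 over all genes tested.

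**Figure D3:**
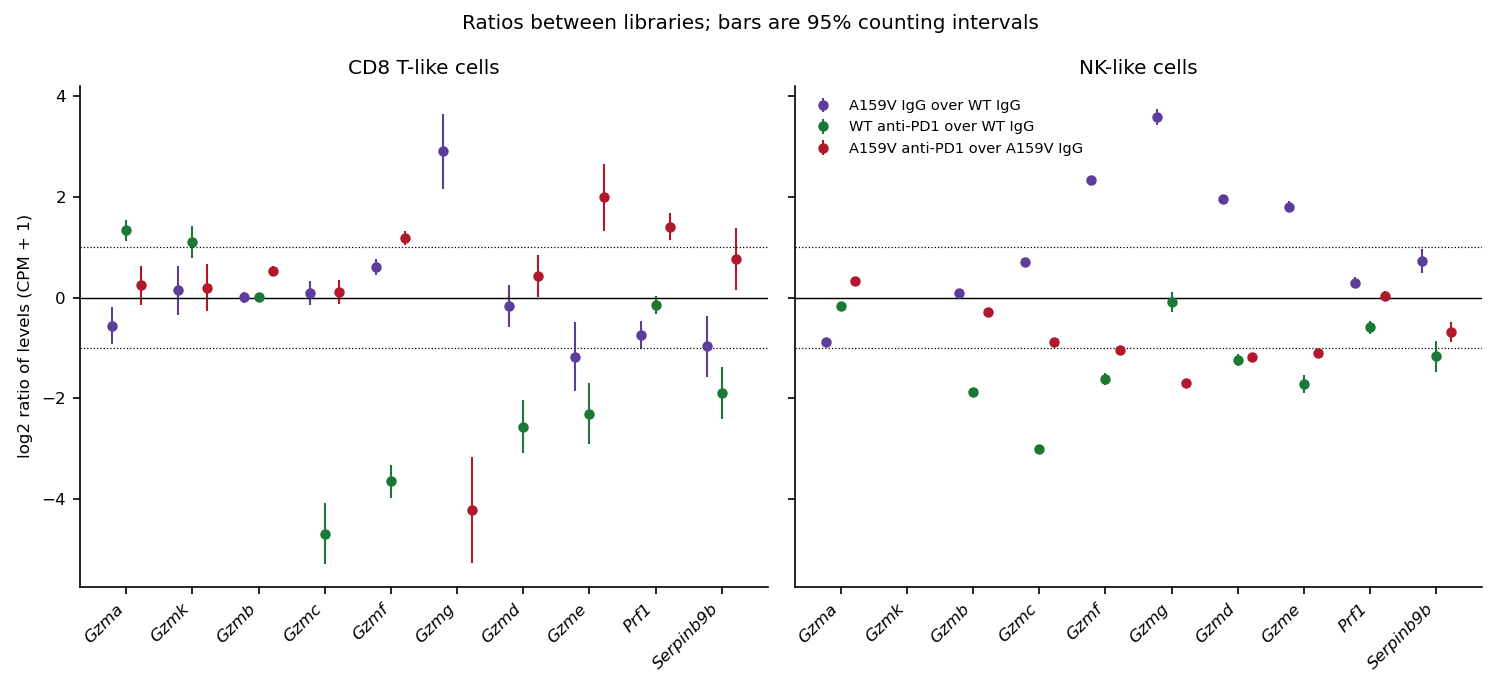
Log2 ratio of levels (CPM plus 1) between libraries for each gene (x axis) at 20 CPM or more in either library, with 95% counting intervals; dotted lines mark 2-fold and 3 colors mark the comparisons. In NK-like cells Gzmd to Gzmg lie above 2-fold for A159V IgG over WT IgG, and in CD8 T-like cells Gzmc to Gzmf lie far below for WT anti-PD1 over WT IgG while Gzmb stays near 0.

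Within CD8 T-like cells the granzymes parted by subcluster. The subcluster led by Gzmk and interferon-induced genes, of 492 cells, held Gzmb at 1791 CPM and Gzma at 318 CPM, with Gzmf at 2.95 CPM and Prf1 at 63.8 CPM. The subcluster led by Gm156 and Rgs8, of 363 cells, held Gzmb at 1593 CPM, Gzmf at 1877 CPM and Prf1 at 608 CPM, with Gzmk at 41.4 CPM. It held Havcr2, the checkpoint receptor TIM-3, at 315 CPM and Tcf7, a factor of memory-like T cells, at 11.8 CPM, against 30.4 and 135 CPM in the first. The Havcr2-led subcluster of WT anti-PD1, of 520 cells, had Havcr2 at 539 CPM and Gzmb at 1340.2 CPM but Gzmf at 40.4 CPM. In the Gm156 and Rgs8 subcluster Gzmf was at 888 CPM in 126 WT IgG cells, 2415 CPM in 76 A159V IgG cells and 2857 CPM in 154 A159V anti-PD1 cells, so that the A159V libraries lay close there, with a log2 ratio of 0.24 (0.10 to 0.38). Prf1 was at 388 and 686 CPM in those A159V cells, a log2 ratio of 0.82. In the cycling subcluster the A159V libraries lay far apart, with Gzmf at 50.8 CPM in 65 A159V IgG cells and 1620.4 CPM in 51 A159V anti-PD1 cells, a log2 ratio of 4.97 (4.29 to 5.65), and Prf1 at 95.6 and 518 CPM. WT IgG held Gzmf at 394 CPM in its 59 cycling cells. How the Gzmf UMIs were spread over these cycling cells was not examined, and the counting interval does not cover it. At an equal depth of 1500 UMIs per cell, Gzmb was at 1632 CPM in 203 WT anti-PD1 cells with a Havcr2 UMI and 728 CPM in 263 without. In A159V anti-PD1 it was at 2053 CPM in 63 cells with Havcr2 and 1684 CPM in 257 without.

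In Treg-like cells Gzmb was at 2134 CPM under IgG and 1353 CPM under anti-PD1 with WT tumors, and at 2123 and 1916 CPM with A159V tumors. The Treg-like level was above that of CD8 T-like cells in both IgG libraries, and their intervals overlapped in both anti-PD1 libraries. Prf1 was at 25.05, 18.0, 33.8 and 53.8 CPM in the same order, far below Gzmb in each library. Between A159V IgG and WT IgG, 2 of the 4 genes at 20 CPM or more were more than 2-fold higher, where 5.72% of all genes were higher and 3.52% lower. Gzma was 4.89-fold higher, and Gzmc, with 3 UMIs in WT IgG, had a log2 ratio of 5.51 (4.17 to 6.84). A single cell of 181 held 69 of the 73 Gzma UMIs and 65 of the 70 Gzmc UMIs. That cell had 6 Ncr1 and 3 Klrb1c UMIs and no Foxp3 or Cd3e UMI. Without the top cell of each library the log2 ratio of Gzma was -1.04. With Treg cells chosen by Foxp3 UMIs, which that cell lacked, it was 6.17, in 55 A159V IgG and 129 WT IgG cells. That choice left out cells with a Cd8a, Cd8b1 or Ncr1 UMI but did not ask for a CD3 chain UMI. The number of Gzma UMIs behind the 6.17, and their spread over cells, was not examined, so no direction is read from it. The same cell was in the comparison of A159V anti-PD1 with A159V IgG, where Gzma and Gzmc were the 2 genes lower by more than 2-fold and 4.83% of all genes were lower. Gzmb, the 1 granzyme spread over many Treg-like cells, differed by -0.66 (-0.76 to -0.55) with anti-PD1 in WT tumors and by -0.15 (-0.28 to -0.01) in A159V tumors, on the log2 scale. Without the subcluster drawn mostly from WT anti-PD1 the first of these was -1.78, past 2-fold, and with Treg cells chosen by Foxp3 UMIs it was -0.30. With anti-PD1 in WT tumors 1 of the 3 genes at 20 CPM or more was more than 2-fold lower, Gzma at 2.20-fold on 20 and 36 UMIs, where 10.1% of all genes were lower and 7.59% higher. Its log2 ratio turned to 0.23 at resolution 0.5 and to 2.10 with Treg cells chosen by Foxp3 UMIs.

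The Nsg2/Klra6 T cells had Gzmb at 622 CPM under IgG and 62.1 CPM under anti-PD1 with WT tumors, and at 1050.2 and 523 CPM with A159V tumors. The level in A159V IgG was thus the highest and that in WT anti-PD1 the lowest. With anti-PD1 in WT tumors Gzmb was 9.88-fold and Gzmc 13.7-fold lower, 2 of the 4 genes at 20 CPM or more, where 6.99% of all genes were lower. Of the 281 WT anti-PD1 cells, 266 lay in a subcluster that held 4 of the 195 WT IgG cells. Without that subcluster the log2 ratio of Gzmb was -1.12. For Gzmc, 1 cell of WT IgG held 52 of the 103 UMIs. In A159V tumors the log2 ratio of Gzmb was -1.01 (-1.21 to -0.80), which 6 of 11 alternatives took under 2-fold, and Gzmc was 8.95-fold lower, where 2.91% of all genes were lower. Gzma was at 82.8, 89.5, 2.37 and 36.4 CPM, with 1 UMI in A159V IgG. It was the 1 gene lower when A159V IgG was set against WT IgG, where 2.8% of all genes were lower, and the 1 gene higher with anti-PD1 in A159V tumors, where 3.71% were higher. Prf1 was at 20.1 to 26.2 CPM in these cells of all 4 libraries. In the gamma-delta T-like cells, Gzmb was at 181 CPM in A159V anti-PD1 on 17 UMIs, and each of the other libraries had 1 to 3 Gzmb UMIs. Gzmf, Gzmk and Serpinb9b had 0 UMIs in the 78 gamma-delta T-like cells, so no comparison between libraries was made for them.

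Shares of cells with a UMI were compared at an equal depth of 1500 UMIs per cell, without the 16 to 103 shallower cells per library in the NK-like, CD8 T-like and Treg-like classes. The 103 were Treg-like cells of A159V IgG, of which only 78 of 181 stayed. Gzmb was detected in 77.7% (71.4 to 83.3), 53.5% (48.4 to 58.5), 81.3% (77.1 to 85.1) and 78.5% (73.6 to 82.9) of NK-like cells, so that WT anti-PD1 lay below the rest. The shares without thinning were 86.2%, 62.1%, 86.0% and 82.9%. In CD8 T-like cells the shares were 51.8%, 52.1%, 56.7% and 59.4%, with overlapping exact intervals, and 61.3%, 61.1%, 60.9% and 66.8% without thinning. Prf1 was detected in 18.0%, 26.2%, 15.2% and 28.1% of CD8 T-like cells (32.5%, 40.5%, 22.2% and 38.0% without thinning). In WT anti-PD1 this share was above that of WT IgG although the CPM was not, so no order is read from it. In stromal-like cells, taken as the background, Gzmb was detected in 0.347% to 2.19% and Prf1 in 0% to 1.32% of thinned cells, 0 of 175 cells allowing a share of up to 1.71%. The median depth before thinning was 2166 to 3452 UMIs in CD8 T-like cells and 9557.5 to 22312 in stromal-like cells. The gaps in Gzmc were wide in both classes: 65.3%, 16.5%, 81.9% and 61.2% of NK-like cells and 9.97%, 0.858%, 7.87% and 9.69% of CD8 T-like cells (68.3%, 17.5%, 80.8% and 63.9%, and 14.6%, 2.36%, 11.3% and 13.1%, without thinning).

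NK-like cells often held more than 1 granzyme. At least 3 of the 8 granzymes were detected in 49.5% (42.4 to 56.6), 10.5% (7.67 to 14), 64.8% (59.8 to 69.5) and 47.6% (42.0 to 53.3) of thinned NK-like cells, lowest in WT anti-PD1. In CD8 T-like cells the shares were 8.36%, 4.29%, 6.74% and 11.2%, and 29.4% to 38.3% of cells held none. Of all thinned Treg-like cells, 28.0% to 38.6% held none, 58.5% to 68.4% held exactly 1 and 2.03% to 3.85% held 2. In the 2 libraries that had cells with 3 or more, these were 0.813% to 1.28%. Treg-like cells with any granzyme thus held mostly 1. Prf1 was found more often in cells with a Gzmb UMI than in cells without, in all 4 libraries and in both classes. In NK-like cells of WT IgG the shares were 65.0% and 26.7%, and in CD8 T-like cells of WT IgG 26.1% and 9.33%, the widest gap of each class. The gap was narrower in CD8 T-like cells of A159V tumors, at 17.8% and 11.7% under IgG and 31.6% and 23.1% under anti-PD1. No interval was computed for these gaps. Gzmd was almost confined to NK-like cells with Gzmc in the 4 libraries: 61.4% of A159V IgG cells with Gzmc held Gzmd, against 2.86% of those without, and in the other libraries 0.615% to 2.44% of cells without Gzmc held it. In A159V anti-PD1 CD8 T-like cells, 71.0% of the 31 cells with Gzmc held Gzmf, against 15.9% of the others.

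**Figure D4:**
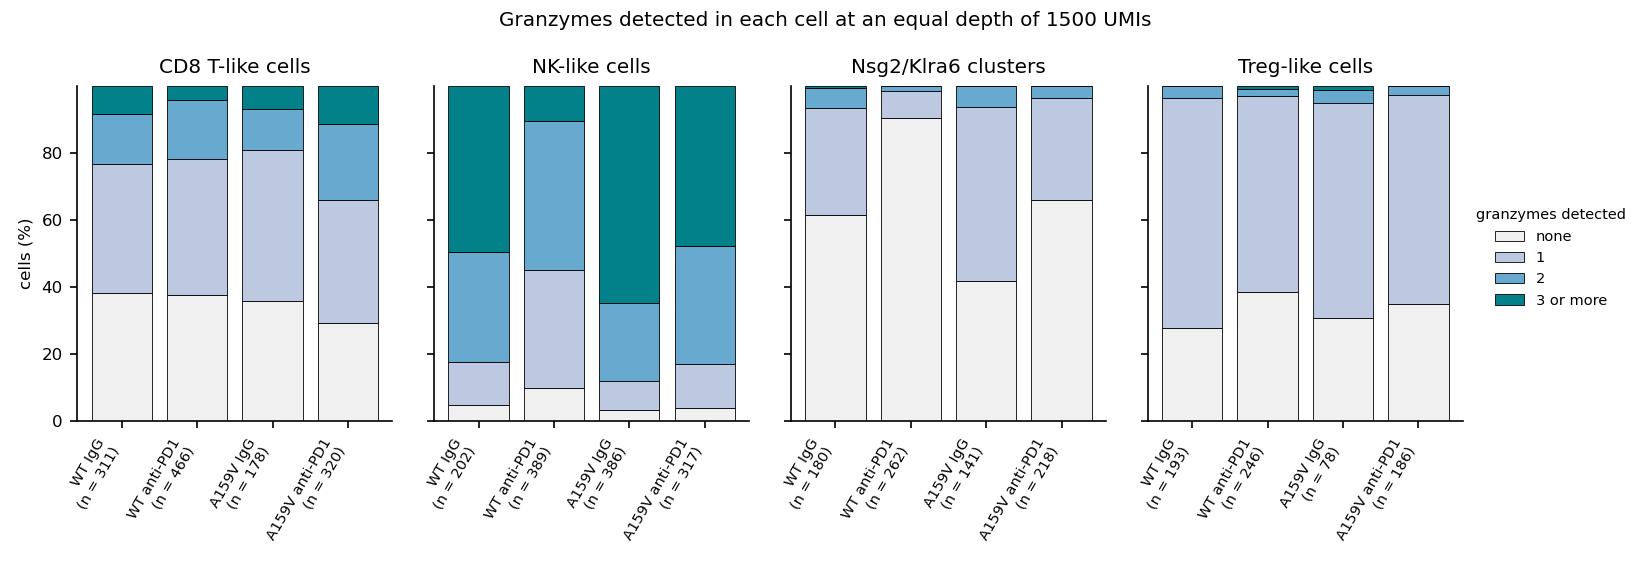
Share of cells (%) with a UMI of 0, 1, 2 or at least 3 of the 8 granzymes after thinning to 1500 UMIs per cell, by class and library, with the number of thinned cells under each bar. The dark segment, at least 3 granzymes, reaches 64.8% in NK-like cells of A159V IgG and 10.5% in WT anti-PD1, and Treg-like cells hold mostly 1.

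Gzmd, Gzmf and Gzmg were spread unevenly over the cells. In NK-like cells of A159V IgG, 50% of the Gzmg UMIs lay in 7 of the 114 cells with any, and 1 cell held 1205 of 7344. For Gzmf it was 13 of 125 cells, with 1733 of 14045 UMIs in 1 cell. The top cell held 16.4% of the Gzmg UMIs, 12.3% of Gzmf and 11% of Gzmd, against 4.0% of Gzma, 3.10% of Gzmb and 2.19% of Gzmc. In CD8 T-like cells of A159V anti-PD1, 8 of 90 cells held 50% of the 2378 Gzmf UMIs, and 1 cell held 558. Levels of Gzmf and Gzmg thus rested on few cells, and the counting intervals do not cover the choice of those cells. The end of the transcripts, which 3′ sequencing reads, also overlaps between some of these genes: of 451 windows of 50 bases in the last 500 bases, 20% of those of Gzmd, 15.3% of Gzme, 7.10% of Gzmf and 5.76% of Gzmg occur in another of the 10 genes, most in Gzme for Gzmd. For the other 6 genes the share was 0%. Values of Gzmd and Gzme in particular are uncertain to that extent.

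The list of granule loading and release held 12 genes (Srgn, Ctsc, Cst7, Nkg7, Lamp1, Unc13d, Rab27a, Stx11, Stxbp2, Lyst, Vamp7 and Vamp8), all at 20 CPM or more. In NK-like cells, 0 of the 12 passed 2-fold in A159V IgG over WT IgG or in A159V anti-PD1 over A159V IgG, near the shares of all genes there (at most 1.32% in either direction). With anti-PD1 in WT tumors Lyst, a regulator of granule size, was 439 against 145 CPM, and Srgn, the proteoglycan that packs granzymes, was 472 against 1159 CPM, 1 of 12 higher and 1 of 12 lower where 14.6% and 6.83% of all genes were. In CD8 T-like cells Stx11 and Unc13d, which take part in granule fusion, were below WT IgG in A159V IgG, at 36.2 against 81.0 CPM and 12.5 against 28.3 CPM, 2 of 12 where 1.76% of all genes were lower. Both were higher in A159V anti-PD1, at 93.8 and 29.8 CPM, where 2.51% of all genes were higher. Lyst was the 1 gene of the list past 2-fold in WT anti-PD1 CD8 T-like cells, at 543 against 243 CPM, and 1 of 12 was near the 8.76% of all genes that were higher.

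Among 6 other granzymes and serpins, 3 of the 4 at 20 CPM or more were lower in CD8 T-like cells of WT anti-PD1 than of WT IgG, where 8.69% of all genes were lower. They were Serpinb9, the granzyme B inhibitor, at 75.5 against 203 CPM, Serpinb6b at 66.4 against 144 CPM and Serpina3g at 40.3 against 109 CPM. In A159V tumors, Serpinb9 and Serpinb6b were higher with anti-PD1, at 300.5 against 142 CPM and 252 against 105 CPM, 2 of 4 genes where 2.51% of all genes were higher. Among 4 death ligands, Fasl was higher in WT anti-PD1 CD8 T-like cells, at 286 against 137 CPM, and Tnf was below WT IgG in A159V IgG, at 27.9 against 109 CPM in CD8 T-like and 11.3 against 40.1 CPM in NK-like cells. Each was 1 of 3 genes at 20 CPM or more. For Fasl, 8.76% of all genes were higher in that comparison. For Tnf, 1.76% of all genes were lower in CD8 T-like and 1.09% in NK-like cells. Of 6 transcription factors of cytotoxic cells, Tbx21 was at 119.9 CPM in CD8 T-like cells of A159V IgG against 276 in WT IgG and 250.04 in A159V anti-PD1, where Zeb2 was also above A159V IgG, at 262 against 117 CPM. Thus 1 of 6 was lower in A159V IgG than WT IgG, where 1.76% of all genes were. With anti-PD1 in A159V tumors 2 of 6 were higher, where 2.51% of all genes were. In WT anti-PD1, Prdm1 and Eomes were above WT IgG in both classes, at 118 against 39.9 and 60.9 against 21.9 CPM in CD8 T-like cells and 99.7 against 25.3 and 348 against 141 CPM in NK-like cells. In the same comparison Id2 was higher in CD8 T-like cells, at 1531 against 499.6 CPM, and Zeb2 in NK-like cells, at 364 against 132 CPM. That made 3 of 6 factors in each class, where 8.76% and 14.6% of all genes were higher. In Treg-like cells Nkg7, a granule membrane protein, was below WT IgG in WT anti-PD1, at 119.8 against 264 CPM, as were Serpinb9 and Serpina3g, which made 1 of 12 and 2 of 4 genes of these lists where 10.1% of all genes were lower. Serpinb6a in A159V IgG was above both WT IgG and A159V anti-PD1, at 117 against 40.1 and 46.1 CPM, 1 of 4 genes where 5.72% of all genes were higher in the first comparison and 4.83% lower in the second. In Nsg2/Klra6 cells Lyst, Id2, Eomes, Stxbp2 and Serpinb6a were higher with anti-PD1 in WT tumors, led by Lyst at 1179 against 305 CPM. They made 2 of 12 genes of granule loading and release, 1 of 4 other granzymes and serpins and 2 of 5 transcription factors. Of all genes, 10.7% were higher there. Stxbp2 was also higher in their A159V IgG than WT IgG cells, and Stx11 lower with anti-PD1 in A159V tumors, each 1 of 12 genes where 3.55% of all genes were higher and 2.91% lower.

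Across 41 profiles of named classes and libraries with at least 50 cells, the genes most like each granzyme in level were compared by Pearson's r of log2(CPM + 10), as a description, since the profiles share libraries. Gzmc was most like Gzme (r = 0.92), Gzmd (0.91) and Gzmg (0.90), which lie in the same stretch of chromosome 14. Gzmf and Gzmb, next to Gzmc in the order of the 6 genes there, were not among its 3. Gzma was most like Prf1 (0.92), Styk1 (0.88) and Gzmc (0.87), and Prf1 most like Nrgn (0.94), Gzma (0.92) and Gzmf (0.91). Gzmb was most like Osbpl3 (0.94), I730030J21Rik (0.93) and Nkg7 (0.92). Gzmk had no other granzyme among its 3, with Pdcd1, the gene of PD1 itself, first at 0.89, then Smyd1 (0.88) and Vmn2r96 (0.87).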

How the data were processed

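Single-cell 3′ RNA sequencing (10x Genomics) was done on 4 MC38 tumor libraries. The authors deposited raw UMI counts per gene for barcodes called as cells, made with Cell Ranger on mm10. The file headers name version 7.2.0 and the submitters' processing notes name 5.0.1. No background RNA was subtracted here.

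Cells with more than 500 genes were kept, and doublets were predicted per library by comparison with simulated doublets and removed at 0.8% per 1000 cells. Counts were scaled to 10000 per cell, and 2000 variable genes, 20 principal components and 20 neighbors were used for Leiden clustering at resolution 1 (leidenalg 0.10.2, igraph 0.11.9). This gave 23 clusters of all cells and 17 subclusters of T-like and NK-like cells, named from marker lists. The 10 reported genes and the granule lists were kept out of clustering. Analyses used Python 3.11.15, numpy 2.4.6, scipy 1.17.1, pandas 2.3.3, sklearn 1.9.0 and matplotlib 3.10.9.

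For each library and class, UMIs of a gene were added up and divided by the class total to give CPM. Log2 ratios used CPM plus 1, and a gene was called past 2-fold where 1 of both libraries compared reached 20 CPM. Intervals are 95% Poisson intervals for levels, the same counting error for ratios, and exact binomial intervals for shares. With 1 library per group no test was run. The ratio step was run on simulated counts with Poisson error only, which cannot show the effect of UMIs held by few cells. Shares used cells thinned to 1500 UMIs, and 0 cells allow 3. All 10 genes were named, with up to 4 genes past 2-fold per other list, class and comparison. The genes and lists were chosen with earlier results of these data known.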

Additional observations from a re-analysis of the deposited data

Results flagged for a closer look

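In CD8 T-like cells, 4 genes differed with anti-PD1 in opposite directions in WT and A159V tumors, and the difference between the tumors was not tested because each group was 1 library. The log2 ratio of anti-PD1 over IgG was -3.65 in WT and 1.18 in A159V tumors for Gzmf. For Gzme it was -2.30 in WT and 2.0 in A159V tumors. For Gzmd it was -2.56 in WT and 0.44 in A159V tumors. For Serpinb9b it was -1.90 in WT and 0.77 in A159V tumors. With subclusters drawn at resolution 0.5 the A159V ratio was -1.84 for Gzmd, -0.96 for Gzme and -0.23 for Serpinb9b, the same direction as in WT tumors, and 0.75 for Gzmf, so that of the 4 genes only Gzmf kept opposite directions under that setting. In NK-like cells Gzma did the same on a smaller scale, at -0.17 in WT and 0.34 in A159V tumors, also not tested. The part that the WT anti-PD1 library's own subclusters had in these values was not tested beyond leaving those subclusters out.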

How the results depend on the processing

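No paired analysis was possible because each group was 1 library. Of 38 log2 ratios past 2-fold, 30 kept their direction and 14 also stayed past 2-fold under every alternative run. Of all 891 alternative values of log2 ratios, 642 moved by less than the counting interval, and 65, in 28 of 75 ratios, had the other sign. Of those 65, 14 were of ratios past 2-fold. They were those of Gzme in CD8 T-like cells at resolution 0.5, at 1.82 for A159V IgG over WT IgG and -0.96 for A159V anti-PD1 over A159V IgG, and those of Gzmd, Gzme and Gzmf in NK-like cells of WT anti-PD1, at 1.19, 0.65 and 0.74, without subclusters drawn mostly from 1 library. In Treg-like cells, Gzma in A159V IgG over WT IgG was -1.60 in cells with over 1000 genes, -1.75 with doublets kept, -1.77 without stray markers and -1.04 without the top cell, and in WT anti-PD1 over WT IgG 0.23 at resolution 0.5 and 2.10 by gates. By gates, Gzma in Treg-like cells of A159V IgG over WT IgG was 6.17, on a number of UMIs that was not examined. Gzmc in A159V anti-PD1 over A159V IgG was 0.042, 0.73 and 0.70 there in cells with over 1000 genes, with doublets kept and without stray markers. Among ratios short of 2-fold in CD8 T-like cells, resolution 0.5 took A159V IgG over WT IgG from -0.56 to 0.99 for Gzma and from -0.17 to 2.31 for Gzmd. It took A159V anti-PD1 over A159V IgG from 0.25 to -1.57 for Gzma, from 0.11 to -2.07 for Gzmc, from 0.44 to -1.84 for Gzmd and from 0.77 to -0.23 for Serpinb9b. Of 12 alternatives, 11 kept the direction of each of these Gzma ratios, and some passed 2-fold. A159V IgG over WT IgG was -2.69 by gates, -1.24 in cells with over 1000 genes and -1.12 without stray markers. A159V anti-PD1 over A159V IgG was 1.98 by gates and 1.02 in cells with over 1000 genes. Gzmg in NK-like cells of WT anti-PD1 went from -0.093 to 2.36 without 1-library subclusters. Leaving out those subclusters, or the cell with the most UMIs of a gene, was chosen after seeing the data. The causes were not tested.

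For Gzmb in CD8 T-like cells, A159V IgG over WT IgG was -0.13 by the mean over cells, 0.60 at resolution 0.5, 0.13 by marker gates and -0.17 without cells with stray markers of other cell types. WT anti-PD1 over WT IgG was -0.18 by size factors, -0.39 by the mean over cells, -0.23 at resolution 0.5, -0.12 by gates and -0.080 without stray markers. A159V anti-PD1 over A159V IgG was 0.40 by the mean, -0.079 at resolution 0.5, 0.30 by gates and 0.65 without stray markers. In NK-like cells, A159V IgG over WT IgG was 0.16 by size factors, -0.10 by the mean and -0.039 without stray markers. WT anti-PD1 over WT IgG was -2.13 by size factors, -1.98 by the mean, -2.11 by gates, -2.0 without stray markers, -0.85 without 1-library subclusters and -2.0 without the top cell. A159V anti-PD1 over A159V IgG was -0.43 by size factors, -0.12 by the mean, -0.23 with doublets kept, -0.22 by gates and -0.23 without stray markers. Size factors shifted all genes by up to 0.26 on the log2 scale, in NK-like cells of WT anti-PD1, where the shift was -0.26.

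The count of genes past 2-fold in CD8 T-like cells of A159V IgG over WT IgG was 2. It was 1 with a pseudocount of 10 CPM, 5 at resolution 0.5, 4 without stray markers and 5 at 1.5-fold. In NK-like cells the same count went from 4 to 7 at 1.5-fold, the WT anti-PD1 count from 6 to 3 without 1-library subclusters, and the A159V anti-PD1 count from 4 to 0 by gates. The other 77 of 84 counts stayed within 1.5-fold. Of 24 shares of cells, 16 moved beyond their interval without thinning and 15 with 1000 UMIs.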
